A study of Mus musculus with 12 samples.

Results

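The INK4 inhibitors Cdkn2a, Cdkn2b, Cdkn2c and Cdkn2d, the KIP inhibitors Cdkn1b and Cdkn1c, and Mtap, the gene beside Cdkn2a, were followed across 12 Affymetrix MOE430 2.0 arrays of MEFs, fibroblasts cultured from mouse embryos. Members were chosen by gene symbol, and 7 of 7 were on the array, with 11 probe sets of the 45037 tested and 7 genes of the 18194 with a symbol of their own. The groups, each with 3 arrays, were TKO-Ras, TKO, Rb1KO and wild type (WT) MEFs. TKO-Ras MEFs were labelled with deletions of Rb1, p107 and p130 and with RasG12D. TKO MEFs had the same deletions and no Ras allele on the label. Rb1KO MEFs were labelled with a deletion of Rb1, and their arrays also had low levels of Rbl2, the p130 gene. Cells of every group were taken in exponential growth, to ask how the Rb family affects expression. The TKO MEFs came to the study from another laboratory, and the 3 arrays of each group are labelled biological replicates with no word on separate embryos or cultures, so errors and p-values cover only the spread between these RNA samples.

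INK4 proteins bind the kinases Cdk4 and Cdk6 and keep them from joining D cyclins, while the KIP proteins bind cyclin-kinase complexes, mainly those of Cdk2. Both act ahead of the Rb family (pRb, p107 and p130), whose phosphorylation by these kinases releases E2F transcription factors. In cultured MEFs, Cdkn2a is known for its rise with passage and for limiting the number of divisions. Mtap lies next to Cdkn2a, encodes the enzyme that salvages methylthioadenosine from polyamine synthesis, and is often lost together with the human CDKN2A gene in tumours.

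Cdkn2a encodes 2 unrelated proteins from separate first exons: Ink4a, an INK4 inhibitor, and Arf, which restrains the ubiquitin ligase Mdm2. The single Cdkn2a probe set carries only the gene symbol in the annotation used, so its values are not assigned to either product. In RefSeq's GRCm38.p6, Mtap (chr4:89137370-89181090), Cdkn2a (chr4:89274473-89294619) and Cdkn2b (chr4:89306289-89311032) follow each other on chromosome 4, with 93382 bases between Mtap and Cdkn2a and 11669 bases between Cdkn2a and Cdkn2b. Cdkn2c lies on the same chromosome at chr4:109660876-109666756, Cdkn1b at chr6:134920401-134925525, Cdkn1c at chr7:143458339-143461059 and Cdkn2d at chr9:21288459-21291421.

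The 250 bases ahead of the annotated starts at the shared locus are shown because Cdkn2a and Cdkn2b fell together in TKO MEFs while Mtap did not. They are RefSeq sequences of GRCm38.p6, written 5′ to 3′ on the strand of the gene, with capitals at the letters of a searched motif. The upstream start of Cdkn2a has the window chr4:89294620-89294869 (minus strand), its downstream start chr4:89282193-89282442 (minus strand), Cdkn2b chr4:89311033-89311282 (minus strand) and Mtap chr4:89137120-89137369 (plus strand).
Cdkn2a upstream start: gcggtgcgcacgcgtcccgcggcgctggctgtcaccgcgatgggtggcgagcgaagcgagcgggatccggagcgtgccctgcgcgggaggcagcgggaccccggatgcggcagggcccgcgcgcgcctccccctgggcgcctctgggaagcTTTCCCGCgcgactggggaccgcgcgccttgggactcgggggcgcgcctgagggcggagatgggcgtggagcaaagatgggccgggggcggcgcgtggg
Cdkn2a downstream start: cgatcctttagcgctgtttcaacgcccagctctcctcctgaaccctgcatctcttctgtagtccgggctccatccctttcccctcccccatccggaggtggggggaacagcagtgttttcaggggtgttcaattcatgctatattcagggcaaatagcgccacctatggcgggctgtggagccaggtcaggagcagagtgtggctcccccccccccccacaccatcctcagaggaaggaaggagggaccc
Cdkn2b: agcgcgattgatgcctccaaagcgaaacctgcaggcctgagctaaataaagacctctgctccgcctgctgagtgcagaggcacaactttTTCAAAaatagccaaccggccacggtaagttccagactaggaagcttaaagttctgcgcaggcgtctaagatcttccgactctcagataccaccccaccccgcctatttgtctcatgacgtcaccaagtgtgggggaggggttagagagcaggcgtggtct
Mtap: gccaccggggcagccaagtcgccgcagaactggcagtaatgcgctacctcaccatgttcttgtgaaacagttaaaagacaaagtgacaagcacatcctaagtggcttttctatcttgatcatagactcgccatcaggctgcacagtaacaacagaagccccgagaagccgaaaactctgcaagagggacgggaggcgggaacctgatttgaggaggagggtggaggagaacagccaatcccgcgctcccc
The motifs searched on both strands were the E2F letters TTTCCCGC, TTTCGCGC, TTTGCCGC and TTTGGCGC and the cell cycle homology region, TTTGAA. Windows of 300 bases, 250 before and 50 after the start, were found for 6 of the 7 genes (8 windows). The capitals in the upstream Cdkn2a window mark TTTCCCGC, which begins 99 bases before the start, and E2F letters were in 2.26% of all 32851 windows. The capitals in the Cdkn2b window mark TTTGAA on the opposite strand, beginning 161 bases before the start, and 17.9% of all windows held it. The downstream Cdkn2a window, the Mtap window and those of Cdkn2c (2 windows), Cdkn2d and Cdkn1b held neither. The upstream Cdkn2a window had 45 CpG pairs, a number reached in 1.93% of all windows, against 12 in the downstream Cdkn2a window, 18 in the Cdkn2b window and 14 in the Mtap window.

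Values are the authors' RMA values on the log2 scale, in which 1 unit is a 2-fold difference. They ran from 2.18 to 14.92, with medians of 5.34 to 5.41 per array. No detection calls were given, so 43 probe sets of olfactory receptors were used to set a background level of 5.14 (their 95th percentile), and 52.7% to 54.1% of probe sets per array were above it. Of the deleted genes, Rb1 lay at 7.45 to 7.66 on TKO-Ras arrays, 6.97 to 7.43 on TKO arrays, 7.51 to 7.74 on Rb1KO arrays and 8.31 to 8.70 on WT arrays. Rbl1, which encodes p107, was at background on the TKO-Ras and TKO arrays. Rbl2, which encodes p130, lay at 4.60 to 5.35 on TKO-Ras arrays and 5.27 to 5.71 on TKO arrays, both labelled as p130 deleted, at 3.80 to 4.47 on Rb1KO arrays, whose label names only Rb1, and at 7.54 to 7.90 on WT arrays. Rbl2 was thus at background on every Rb1KO array and lower there than on the TKO arrays. Every direction given for the arrays labelled Rb1KO therefore also goes with low Rbl2. WT replicate 3 stood apart, with a mean correlation of 0.974 with its own group, against 0.982 and 0.986 for the other WT arrays and 0.991 to 0.994 in the other groups. Of 14 measured fibroblast markers, 12 were above background in TKO-Ras (not Thy1 and Lum), 13 in TKO (not Thy1), 14 in Rb1KO and 13 in WT (not Lum) MEFs, and the log2 of their summed level was 16.24 to 16.33, 16.62 to 16.72, 16.35 to 16.45 and 17.14 to 17.38 in that order of groups. The summed level of 7 epithelial markers (4 above background in every group), on the same scale, was 10.48 to 11.12 in TKO-Ras, 9.01 to 9.62 in TKO, 8.89 to 9.20 in Rb1KO and 8.55 to 9.62 in WT MEFs. Leukocyte markers above background numbered 4 of 8 in TKO-Ras, 3 in TKO, 2 in Rb1KO and 3 in WT MEFs, with sums of 9.00 to 9.27, 8.71 to 8.87, 8.37 to 8.50 and 8.25 to 8.37. Fat markers numbered 1 of 4 in TKO-Ras MEFs and 2 of 4 in the other groups, with sums of 7.80 to 8.28 in TKO-Ras, 9.73 to 11.13 in TKO, 7.98 to 8.38 in Rb1KO and 8.94 to 10.24 in WT MEFs. Neural markers numbered 5 of 6 in every group, with sums of 10.31 to 11.06, 9.91 to 10.29, 9.75 to 9.98 and 11.06 to 11.16 in TKO-Ras, TKO, Rb1KO and WT MEFs. Muscle markers numbered 3 of 6 (sums of 8.22 to 10.13) and endothelial markers 1 of 6 (7.15 to 7.55) in every group. The part of these marker levels in the results was not tested. By name, Ptprc, Adgre1, Itgam and Tyrobp (leukocytes) and Pecam1, Cdh5, Tek, Tie1 and Emcn (endothelium) were at background in every group. So were Cdh1, Krt14 and Krt18 (epithelium), Myod1, Myog and Myh3 (muscle) and Adipoq and Cd36 (fat). Above background in every group were Csf1r and Cd14 (leukocytes), Kdr (endothelium), Epcam, Krt5, Krt8 and Krt19 (epithelium) and Des, Acta1 and Ckm (muscle). Map2 (neural) was at background in TKO-Ras and TKO MEFs, and Sox2 (neural) in Rb1KO and WT MEFs.

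**Figure D1:**
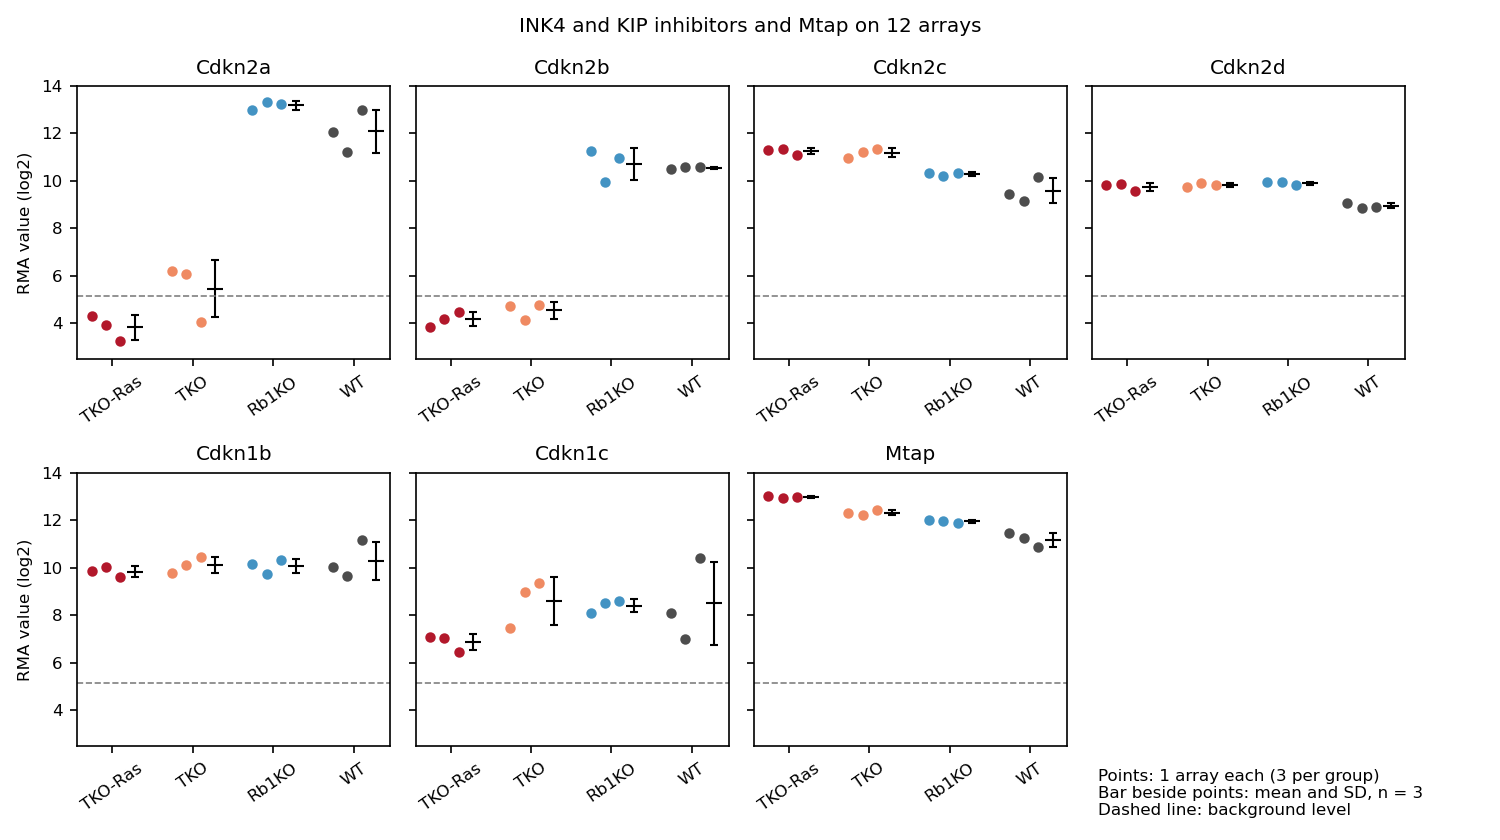
RMA values (log2, vertical axis) of the 7 genes by group, with 1 point per array and the mean and SD beside them (n = 3); the dashed line is the background level. Cdkn2b lies below 5.14 in TKO-Ras and TKO MEFs. Cdkn2a lies below it in TKO-Ras MEFs and on TKO replicate 3, and at 6.20 and 6.10 on the other TKO arrays. Both genes lie between 9.95 and 13.32 in Rb1KO and WT MEFs.

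In TKO against WT MEFs, 5 of the 7 genes passed the test (adjusted p under 0.05 from limma over all probe sets), against 23.5% of all genes. Cdkn2a and Cdkn2b were lower (9.90% of all genes) and Cdkn2c, Cdkn2d and Mtap higher (13.6%), and the median log2 fold change of the 7 was 0.09 against 0.05 over all genes. The same genes passed in the same directions in TKO-Ras against WT MEFs, where 33.7% of all genes passed, 19.4% higher and 14.3% lower, with medians of -0.46 for the 7 and 0.11 for all genes. In Rb1KO against WT MEFs, 3 of 7 passed, Cdkn2c, Cdkn2d and Mtap, all higher, while 27.9% of all genes passed, 15.6% higher and 12.3% lower, with medians of 0.71 and 0.08. These comparisons share the WT arrays. In TKO against Rb1KO MEFs, 3 of 7 passed, Cdkn2c higher and Cdkn2a and Cdkn2b lower, with 9.55% of all genes passing, 5.92% higher and 3.63% lower, and medians of 0.05 and -0.03. In TKO-Ras against TKO MEFs, only Mtap passed, as higher, with 7.36% of all genes passing, 3.19% higher and 4.17% lower, and medians of -0.28 and 0.04. Cdkn1b and Cdkn1c passed in none of the 5 comparisons. A lower value in these RNA samples can come from fewer cells that express a gene or from less RNA per cell, and these cannot be told apart.

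Cdkn2a had 4.30, 3.92 and 3.27 in TKO-Ras MEFs, 6.20, 6.10 and 4.07 in TKO MEFs, 12.99, 13.32 and 13.25 in Rb1KO MEFs, and 12.08, 11.20 and 12.98 in WT MEFs. All TKO-Ras arrays and 1 of the 3 TKO arrays were at background, and every TKO array lay far below every WT array. The mean was 5.46 ± 1.2 in TKO MEFs and 12.08 ± 0.89 in WT MEFs (SD, n = 3 each), with a log2 fold change of -6.62 (SE 0.55, limma adjusted p = 1.4e-05) that includes the 1 TKO array below background. With that array set at the background level, a setting added after the values were seen, Cdkn2a was 77.2-fold lower in TKO MEFs (limma adjusted p = 1.4e-06). Without WT replicate 3 the log2 fold change was -6.18 (limma adjusted p = 1.4e-05). In TKO-Ras MEFs Cdkn2a was at least 123-fold lower than in WT MEFs (limma adjusted p = 1.5e-06), counted against the background level because all TKO-Ras arrays lay below it. With the 99th percentile of the olfactory receptors, 5.82, in place of the 95th, that bound was 76.7-fold.

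Loss of Rb1 on the label was not accompanied by low Cdkn2a: the Rb1KO arrays averaged 13.19 ± 0.18, against 12.08 ± 0.89 on the WT arrays (SD, n = 3 each). The Rb1KO values all lay above the WT values, the closest pair being 12.99 and 12.98. The log2 fold change of 1.10 (95% CI -0.11 to 2.31) did not pass (limma adjusted p = 0.19). It passed only with array weights, at 1.22 (limma adjusted p = 0.046). In TKO against Rb1KO MEFs the log2 fold change of Cdkn2a was -7.73 (SE 0.55, limma adjusted p = 7.7e-06), and with the low TKO array at the background level it was 166-fold lower (limma adjusted p = 6.3e-07). Between TKO-Ras and TKO MEFs the groups overlapped, since TKO replicate 3 lay at 4.07. With every TKO-Ras array at background, only a bound of at least 1.25-fold lower holds, with no bound at the 99th percentile, and the comparison did not pass (limma adjusted p = 0.12). It passed without TKO replicate 3 (limma adjusted p = 0.017) and with array weights (limma adjusted p = 0.024), both resting on values below background. With those values set at the background level it did not pass (limma adjusted p = 0.37).

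Cdkn2b, which encodes the INK4 inhibitor induced by TGF-β in epithelial cells, followed the same split. It had 3.87, 4.21 and 4.48 in TKO-Ras MEFs, 4.75, 4.14 and 4.79 in TKO MEFs, 11.25, 9.95 and 10.96 in Rb1KO MEFs, and 10.49, 10.58 and 10.57 in WT MEFs. All TKO-Ras and TKO arrays were at background, all Rb1KO and WT arrays were above it, and WT arrays differed from each other by less than 0.1. Cdkn2b was at least 42.5-fold lower than in WT MEFs both in TKO MEFs (limma adjusted p = 3.6e-07) and in TKO-Ras MEFs (limma adjusted p = 1.3e-07), and at least 48.0-fold lower in TKO than in Rb1KO MEFs (limma adjusted p = 3.7e-07). The bound against WT was 26.4-fold with the 99th percentile as background. Rb1KO MEFs averaged 10.72 ± 0.68, against 10.55 ± 0.047 in WT MEFs (SD, n = 3 each), with overlapping arrays and a log2 fold change of 0.17 (95% CI -0.48 to 0.83, limma adjusted p = 0.73). Between TKO-Ras and TKO MEFs no fold is given, as both were at background. Over the 12 arrays the values of Cdkn2a and Cdkn2b had a Pearson r of 0.97, which rests on the split between the TKO and TKO-Ras arrays and the others.

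Cdkn2c, the INK4 gene known as an E2F target, was ordered the other way. It had 11.30, 11.35 and 11.11 in TKO-Ras MEFs, 10.98, 11.21 and 11.37 in TKO MEFs, 10.34, 10.21 and 10.36 in Rb1KO MEFs, and 9.47, 9.15 and 10.17 in WT MEFs. Every TKO array lay above every Rb1KO array, and every Rb1KO array above every WT array, while TKO-Ras and TKO arrays overlapped. The level was 3.01-fold higher in TKO than in WT MEFs, a log2 fold change of 1.59 (SE 0.21, limma adjusted p = 0.00033), and 3.15-fold higher in TKO-Ras than in WT MEFs (limma adjusted p = 0.00015). WT replicate 3 was the highest WT array, and without it the TKO against WT log2 fold change was 1.87 (limma adjusted p = 4.7e-06). The log2 fold change was 0.71 in Rb1KO against WT MEFs (SE 0.21, limma adjusted p = 0.032) and 0.88 in TKO against Rb1KO MEFs (SE 0.21, limma adjusted p = 0.027). Neither of these was called without moderation of the variance (limma adjusted p = 0.072 and 0.078). The first also lost its call with cyclic loess between arrays (log2 fold change 0.57, limma adjusted p = 0.093) and in a fit of the Rb1KO and WT arrays alone (limma adjusted p = 0.10).
Leaving out any Rb1KO array, or WT replicate 1 or 2, took the first above the threshold (limma adjusted p = 0.062 to 0.11), and leaving out any Rb1KO array, or TKO replicate 2 or 3, did so for the second (0.072 to 0.10). Without WT replicate 3, the log2 fold changes were 0.99 (limma adjusted p = 0.00039) and 0.88 (limma adjusted p = 0.00093).

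Cdkn2d, the INK4 inhibitor whose level is known to vary through the cell cycle, had 9.82, 9.87 and 9.57 in TKO-Ras MEFs, 9.74, 9.94 and 9.81 in TKO MEFs, 9.94, 9.96 and 9.84 in Rb1KO MEFs, and 9.09, 8.88 and 8.91 in WT MEFs. All 9 arrays of the deletion groups lay above all WT arrays and overlapped among themselves. Rb1KO MEFs averaged 9.91 ± 0.065, against 8.96 ± 0.11 in WT MEFs (SD, n = 3 each), a 1.94-fold higher level (log2 fold change 0.96, SE 0.11, limma adjusted p = 8e-05). The level was 1.83-fold higher in TKO than in WT MEFs (limma adjusted p = 0.00018) and 1.74-fold higher in TKO-Ras than in WT MEFs (limma adjusted p = 0.00022). The log2 fold change was -0.08 in TKO against Rb1KO MEFs (95% CI -0.32 to 0.15, limma adjusted p = 0.74) and -0.08 in TKO-Ras against TKO MEFs (95% CI -0.31 to 0.16, limma adjusted p = 0.77). Cdkn2c differed between TKO and Rb1KO MEFs at the threshold, and the interval for Cdkn2d lay within 0.32 log2 units of 0. The difference between the genes was not tested.

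Cdkn1b encodes the inhibitor p27, whose amount is known to be set largely by protein turnover. Its brighter probe set had 9.85, 10.06 and 9.61 in TKO-Ras MEFs, 9.79, 10.14 and 10.44 in TKO MEFs, 10.18, 9.73 and 10.31 in Rb1KO MEFs, and 10.06, 9.65 and 11.18 in WT MEFs. The groups all overlapped, and WT replicate 3 was the highest array. The log2 fold change was -0.17 in TKO against WT MEFs (95% CI -0.90 to 0.55, limma adjusted p = 0.78), and the other comparisons lay between -0.46 and 0.05 (limma adjusted p of 0.33 or more). Without WT replicate 3 the TKO against WT value was 0.27 (limma adjusted p = 0.48). The dimmer Cdkn1b probe set had a Pearson r of 0.85 with the brighter one over the 12 arrays. On it TKO-Ras MEFs (7.17, 7.60 and 7.09) lay below TKO MEFs (8.04, 8.08 and 8.19) with no overlap, at a log2 fold change of -0.81 (SE 0.29, limma adjusted p = 0.14), against -0.28 on the brighter probe set (limma adjusted p = 0.71). TKO MEFs also lay above Rb1KO MEFs (7.98, 7.45 and 7.94) with no overlap on the dimmer set, at a log2 fold change of 0.31 (limma adjusted p = 0.62).

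Cdkn1c encodes p57, an inhibitor expressed from the maternal allele. It varied widely within groups, with 7.11, 7.06 and 6.47 in TKO-Ras MEFs, 7.45, 9.00 and 9.37 in TKO MEFs, 8.08, 8.51 and 8.62 in Rb1KO MEFs, and 8.09, 7.01 and 10.44 in WT MEFs. Every TKO-Ras array lay below every TKO array and every Rb1KO array, while TKO, Rb1KO and WT arrays overlapped. WT MEFs spanned 7.01 to 10.44, with replicate 3 at the top. The log2 fold change was -1.73 in TKO-Ras against TKO MEFs (95% CI -3.30 to -0.15, limma adjusted p = 0.22) and -1.63 in TKO-Ras against WT MEFs (95% CI -3.21 to -0.05, limma adjusted p = 0.12). Without WT replicate 3, whose value enters the shared error, the first was called (limma adjusted p = 0.030) and the second was -0.67 (limma adjusted p = 0.34). Without WT replicate 2 the second was -2.38 (limma adjusted p = 0.022). For TKO against WT MEFs the value was 0.09 (95% CI -1.48 to 1.67, limma adjusted p = 0.95), 1.06 without WT replicate 3 (limma adjusted p = 0.16) and -0.66 without WT replicate 2 (limma adjusted p = 0.57). The Pearson r of Cdkn1b and Cdkn1c over the 12 arrays was 0.86, with WT replicate 3 the highest array for both.

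Mtap was the 1 member of 7 whose groups were separate at every step, against 1.78% of all genes. It had 13.04, 12.95 and 12.97 in TKO-Ras MEFs, 12.33, 12.22 and 12.44 in TKO MEFs, 12.01, 11.98 and 11.90 in Rb1KO MEFs, and 11.46, 11.24 and 10.88 in WT MEFs. No array of a group reached into the next. The level was 2.20-fold higher in TKO than in WT MEFs (log2 fold change 1.14, SE 0.13, limma adjusted p = 0.00014), 3.46-fold higher in TKO-Ras than in WT MEFs (log2 fold change 1.79, limma adjusted p = 3.2e-06) and 1.71-fold higher in Rb1KO than in WT MEFs (log2 fold change 0.77, limma adjusted p = 0.0015). WT replicate 3 was the lowest WT array, and without it these log2 fold changes were 0.98, 1.63 and 0.61, all still called (limma adjusted p = 8.1e-05, 1.1e-06 and 0.0017). TKO-Ras MEFs were 1.57-fold higher than TKO MEFs (log2 fold change 0.66, SE 0.13, limma adjusted p = 0.015), a call lost without TKO replicate 2 (0.60, limma adjusted p = 0.069) or without TKO-Ras replicate 1 (0.63, limma adjusted p = 0.059). TKO against Rb1KO MEFs gave 0.37 (95% CI 0.07 to 0.66), which did not pass (limma adjusted p = 0.14) but did without WT replicate 3 (limma adjusted p = 0.035).

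The 4 probe sets of Mtap gave the same order of group means, with pairwise Pearson r of 0.984 to 0.999 over the 12 arrays. Their log2 fold changes were 1.14 to 1.50 in TKO against WT MEFs, 0.77 to 1.22 in Rb1KO against WT MEFs, 1.79 to 2.32 in TKO-Ras against WT MEFs and 0.66 to 0.85 in TKO-Ras against TKO MEFs, and all 4 passed in each of these (limma adjusted p of 0.020 or less). In TKO against Rb1KO MEFs they were 0.21 to 0.48 and none of the 4 passed (limma adjusted p of 0.12 or more). The brightest probe set, used for the gene, gave the smallest change in each of the 3 comparisons against WT MEFs.

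**Figure D2:**
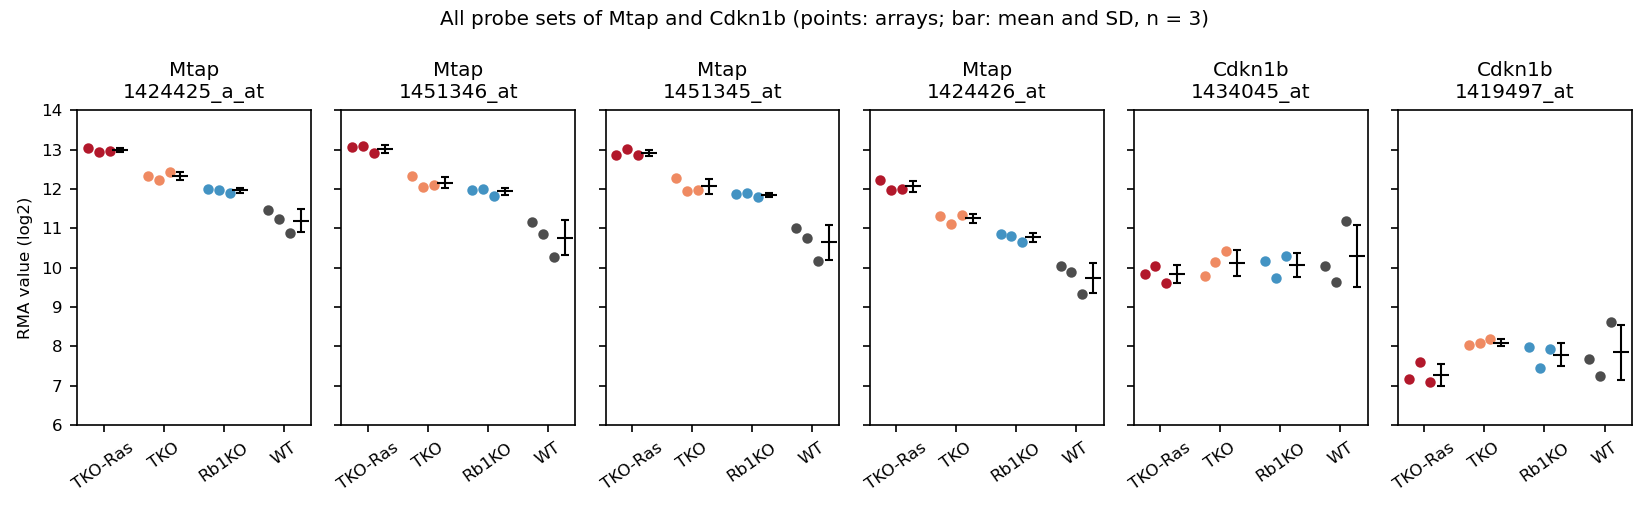
RMA values (log2, vertical axis) by group for the 4 Mtap and the 2 Cdkn1b probe sets, named above each panel, with 1 point per array and the mean and SD beside them (n = 3). All 4 Mtap panels step down in order of TKO-Ras, TKO, Rb1KO and WT, and the Cdkn1b groups overlap except on the dimmer set, where TKO lies above both TKO-Ras and Rb1KO.

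**Figure D3:**
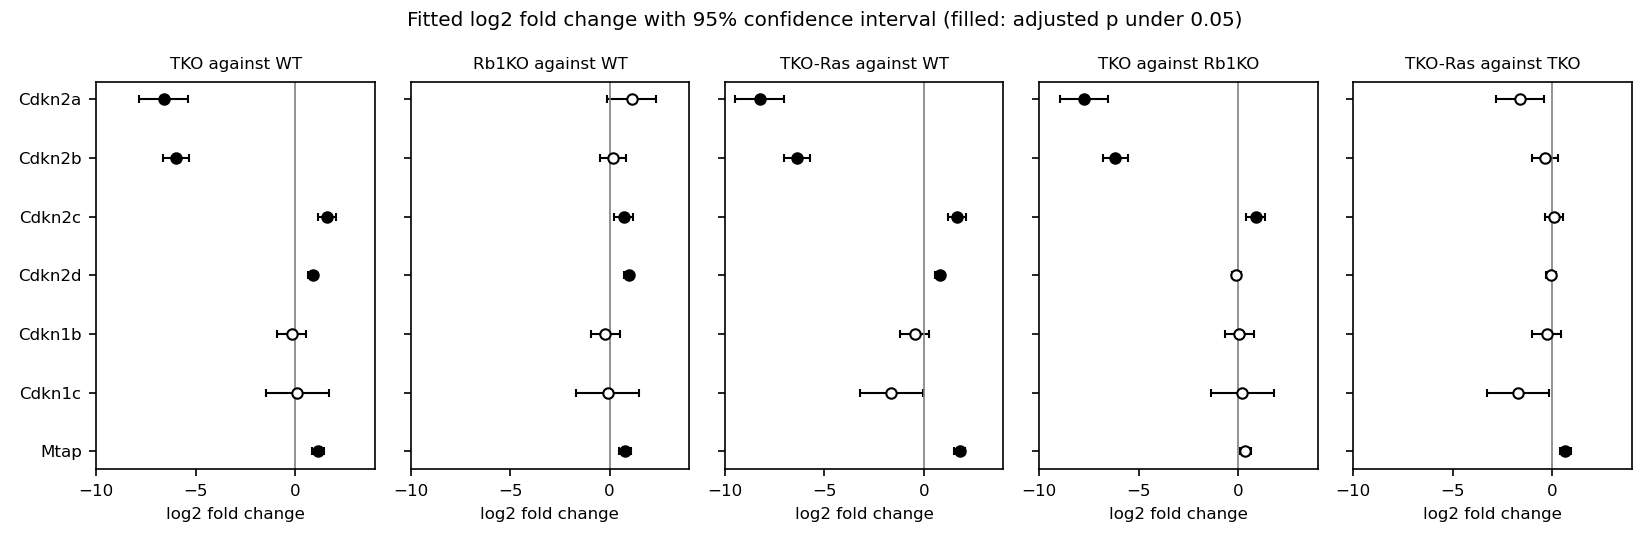
Fitted log2 fold change (horizontal axis) with its 95% confidence interval for the 7 genes in the 5 comparisons; filled points passed at an adjusted p under 0.05. Cdkn2a and Cdkn2b lie far below 0 in TKO and TKO-Ras against WT and in TKO against Rb1KO, where points against a group at background are measured differences and only their bounds hold (at least 42.5-fold for Cdkn2b against WT), and every filled point of Cdkn2c, Cdkn2d and Mtap lies between 0.66 and 1.79.

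Around the locus, 5 measured protein-coding genes on each side were read in RefSeq order. The interferon genes Ifnz, Ifna11, Ifna5, Ifna4 and Ifna1 lie on the Mtap side, and Dmrta1, Zfp352, Elavl2, Izumo3 and Tusc1 on the Cdkn2b side. Of these 10 neighbours, 5 were above background in at least 1 group, and none was called lower in TKO or TKO-Ras against WT MEFs, where 9.90% and 14.3% of all genes were. Elavl2, a neuronal RNA-binding protein, averaged 9.73 in TKO and 4.40 in WT MEFs (limma adjusted p = 8.6e-05). It averaged 9.80 in TKO-Ras and 9.48 in Rb1KO MEFs (limma adjusted p = 4.7e-05 and 9.6e-05 against WT). Its WT mean lay below the background level. With WT values below background set at that level, Elavl2 was 21.8-fold higher in TKO, 18.4-fold in Rb1KO and 23.0-fold in TKO-Ras than in WT MEFs, and with the 99th percentile as background at least 15-fold, 12.6-fold and 15.8-fold. Tusc1 was higher than in WT MEFs by 1.51 log2 units in TKO MEFs (limma adjusted p = 0.0097), 1.74 in Rb1KO MEFs (limma adjusted p = 0.0035) and 1.72 in TKO-Ras MEFs (limma adjusted p = 0.0033). Ifnz, of a family of near-identical genes that can share probes, was lower by 0.53 in Rb1KO against WT MEFs (limma adjusted p = 0.011). The calls of Ifna5 and Dmrta1 in TKO-Ras against WT MEFs were between groups that were both at background. No neighbour passed in TKO against Rb1KO or TKO-Ras against TKO MEFs, where 9.55% and 7.36% of all genes did.

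**Figure D4:**
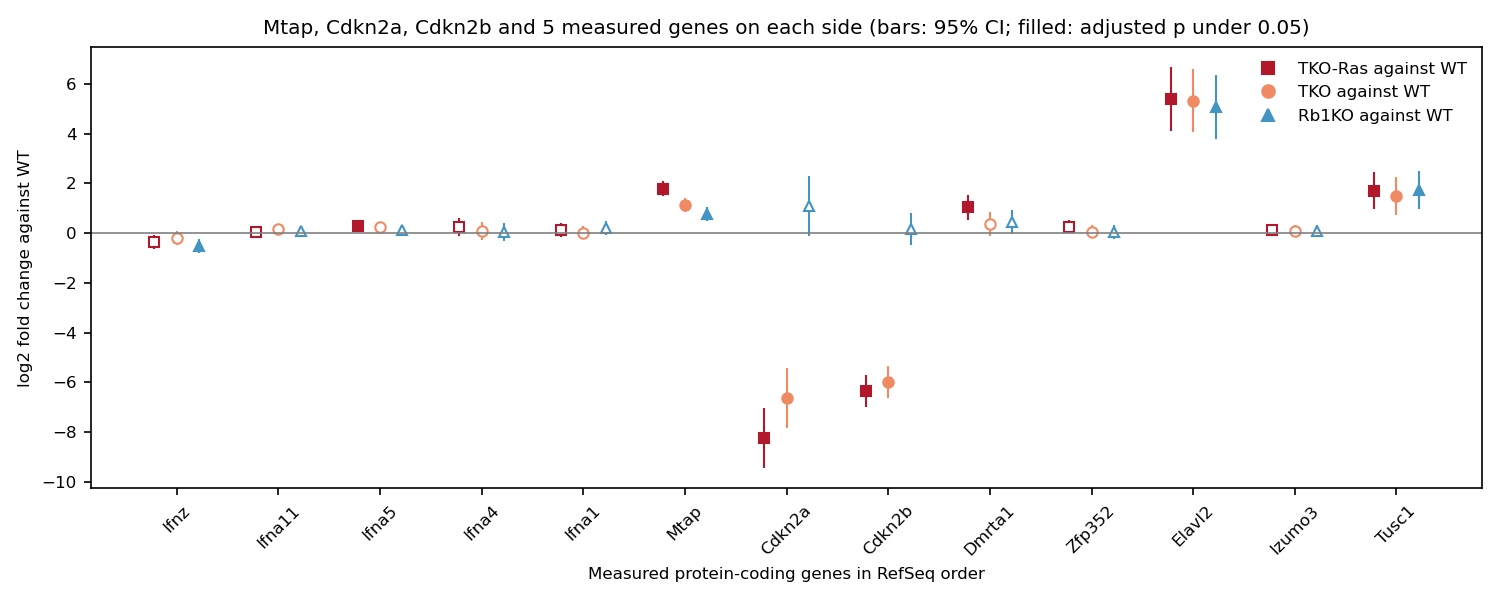
Log2 fold change against WT MEFs (vertical axis, with 95% confidence interval) of Mtap, Cdkn2a, Cdkn2b and 5 measured genes on each side in RefSeq order, for TKO-Ras, TKO and Rb1KO MEFs; filled points passed at an adjusted p under 0.05, and points of groups at background are measured differences. Cdkn2a and Cdkn2b are low in TKO-Ras and TKO MEFs only, with Mtap (0.77 to 1.79) on one side and Elavl2 beyond the other higher in all 3 groups.

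Of the 10 kinases and cyclins that the inhibitors act on, all measured, 4 were higher and 2 lower in each of TKO, Rb1KO and TKO-Ras against WT MEFs, with list medians of 0.27, 0.39 and 0.21, where 23.5%, 27.9% and 33.7% of all genes passed. Ccnd2, a D cyclin that works with Cdk4 and Cdk6, had 8.54, 8.92 and 8.73 in TKO-Ras MEFs, 10.08, 10.58 and 10.42 in TKO MEFs, 8.69, 6.94 and 7.69 in Rb1KO MEFs, and 13.49, 13.57 and 12.78 in WT MEFs. It fell in all 3 deletion groups against WT, with log2 fold changes of -2.92 in TKO (limma adjusted p = 0.00020), -5.50 in Rb1KO (limma adjusted p = 2.5e-06) and -4.55 in TKO-Ras MEFs (limma adjusted p = 5.4e-06), and was 2.58 higher in TKO than in Rb1KO MEFs (limma adjusted p = 0.0011). Ccna2, the cyclin of S phase, rose by 1.51 in TKO, 1.76 in Rb1KO and 1.73 in TKO-Ras against WT MEFs (limma adjusted p of 9.3e-05 or less), and Ccne2, a cyclin of entry into S phase, by 1.36, 1.43 and 1.91 in the same order (limma adjusted p of 0.012 or less). Ccnd1, the D cyclin induced by Ras signalling, had 12.60, 12.40 and 12.72 in TKO-Ras MEFs, against 10.99, 11.17 and 10.54 in TKO MEFs, 1.67 higher (limma adjusted p = 0.016). The kinases of the INK4 proteins, Cdk4 and Cdk6, passed in no comparison, with log2 fold changes of -0.18 to 0.45 and -0.43 to 0.33.

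For Trp53, no probe set was matched to that gene symbol alone, so its level is not given. The arm below Arf was read from the other 4 of the 5 listed genes. None passed in TKO against WT MEFs (limma adjusted p of 0.071 or more), where 23.5% of all genes did. In Rb1KO and in TKO-Ras against WT MEFs 1 was higher and 1 lower, where 27.9% and 33.7% of all genes passed. In TKO against Rb1KO MEFs 1 was higher and in TKO-Ras against TKO MEFs 1 was lower, with 9.55% and 7.36% of all genes passing. Mdm2, the ligase that Arf restrains, passed in no comparison, with log2 fold changes of -0.58 to 0.72. Cdkn1a, the third KIP inhibitor and a target of this arm, had 11.12, 11.24 and 10.99 in TKO-Ras MEFs, 10.94, 11.26 and 11.04 in TKO MEFs, 8.27, 8.50 and 8.91 in Rb1KO MEFs, and 11.52, 11.84 and 9.70 in WT MEFs. The Rb1KO arrays lay below all others. Cdkn1a fell by 2.46 in Rb1KO against WT MEFs (limma adjusted p = 0.0015), was 2.52 higher in TKO than in Rb1KO MEFs (limma adjusted p = 0.0037) and differed by 0.06 between TKO and WT MEFs (limma adjusted p = 0.95). Npm1, a nucleolar protein that binds Arf, was 0.29 higher in Rb1KO and 0.42 higher in TKO-Ras against WT MEFs (limma adjusted p = 0.021 and 0.0020). Mdm4, a partner of Mdm2, was lower by 0.67 in TKO-Ras against WT (limma adjusted p = 0.0055) and by 0.60 in TKO-Ras against TKO MEFs (limma adjusted p = 0.037).

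Of the KIP inhibitors, Cdkn1b and Cdkn1c did not pass at the RNA level in any comparison. For the turnover of the KIP proteins, 10 of 10 listed genes were measured. In TKO against WT MEFs 4 were higher and 2 lower (median 0.07). In Rb1KO and in TKO-Ras against WT MEFs 3 were higher and 2 lower (medians 0.07 and -0.01). None passed in TKO against Rb1KO or TKO-Ras against TKO MEFs, where 9.55% and 7.36% of all genes did. Of all genes, 23.5%, 27.9% and 33.7% passed in TKO, Rb1KO and TKO-Ras against WT MEFs. Skp2, the ubiquitin ligase subunit that recognises p27, was 0.88 higher in TKO (limma adjusted p = 0.0030), 0.97 higher in Rb1KO (limma adjusted p = 0.0013) and 0.57 higher in TKO-Ras against WT MEFs (limma adjusted p = 0.024). Cks1b, its cofactor, was 0.62, 0.78 and 0.70 higher in the same order (limma adjusted p of 0.0013 or less). Dtl, a substrate receptor of the Cul4 ligase, was 1.66, 1.87 and 1.61 higher (limma adjusted p of 1.0e-05 or less), and Ddb1, the adaptor of that ligase, was lower by 0.64, 0.37 and 0.49 (limma adjusted p of 0.040 or less).

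Of 22 genes listed as regulators of the Cdkn2a and Cdkn2b locus, all measured, 5 were higher and 3 lower in TKO against WT MEFs (median 0.38), 6 and 3 in Rb1KO against WT MEFs (median 0.34), 5 and 3 in TKO-Ras against WT MEFs (median 0.29), 3 and 0 in TKO against Rb1KO MEFs and none in TKO-Ras against TKO MEFs. The shares of all genes that passed were 23.5%, 27.9%, 33.7%, 9.55% and 7.36% in these comparisons. Ezh2, the methyltransferase of the Polycomb complex that marks this locus, had 10.60, 10.92 and 10.59 in TKO-Ras MEFs, 10.87, 10.75 and 10.76 in TKO MEFs, 10.88, 11.14 and 10.86 in Rb1KO MEFs, and 9.58, 9.65 and 9.35 in WT MEFs. It rose in all 3 deletion groups against WT (log2 fold changes of 1.27 in TKO, 1.44 in Rb1KO and 1.18 in TKO-Ras, limma adjusted p of 4.5e-05 or less). In TKO against Rb1KO MEFs it differed by -0.17 (95% CI -0.45 to 0.10, limma adjusted p = 0.51). Tbx3, a T-box repressor of the locus, was 1.39 higher in TKO than in Rb1KO MEFs (limma adjusted p = 0.013), with 7.40, 7.27 and 7.12 in TKO MEFs against 5.43, 6.61 and 5.58 in Rb1KO MEFs. Tbx3 was 1.17 lower in Rb1KO against WT MEFs (limma adjusted p = 0.013). It did not pass in TKO against WT MEFs (0.22, limma adjusted p = 0.67). Ets2, an activator of the Ink4a promoter in human cells, was 2.15 higher in TKO against WT MEFs (limma adjusted p = 0.0034). Its WT arrays were spread, at 8.93, 8.54 and 10.45. It was also 1.23 higher in TKO-Ras against WT MEFs (limma adjusted p = 0.044), with overlapping arrays. Ets2 did not pass in Rb1KO against WT (0.69, limma adjusted p = 0.27) or TKO against Rb1KO MEFs (1.47, limma adjusted p = 0.056). Myc passed only in Rb1KO against WT MEFs (1.58, limma adjusted p = 0.047). The part of these genes in the levels of Cdkn2a and Cdkn2b was not tested.

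Among the enzymes around Mtap in methionine salvage, methylation and polyamine synthesis, 11 of 14 were measured. In TKO against WT MEFs 3 were higher (median 0.29), in Rb1KO against WT MEFs 8 (median 0.64) and in TKO-Ras against WT MEFs 5 (median 0.63), and none was lower in these, where 13.6%, 15.6% and 19.4% of all genes were called higher. In TKO against Rb1KO MEFs 1 was higher and 2 lower (median -0.26), where 5.92% and 3.63% of all genes were. None passed in TKO-Ras against TKO MEFs (median 0.36), where 7.36% of all genes did. Ahcy, which breaks down S-adenosylhomocysteine, was 1.02 higher in TKO, 1.25 in Rb1KO and 1.38 in TKO-Ras against WT MEFs (limma adjusted p of 0.00089 or less). Prmt5, the arginine methyltransferase inhibited by the substrate of Mtap, was 0.81, 1.07 and 1.17 higher in the same order (limma adjusted p of 0.0074 or less). Its partner Wdr77 passed only in Rb1KO against WT MEFs (0.90, limma adjusted p = 0.014). Srm, the spermidine synthase that releases the substrate of Mtap, had 12.42, 11.75 and 12.32 in TKO-Ras MEFs, 11.59, 11.48 and 10.96 in TKO MEFs, 12.10, 12.08 and 11.77 in Rb1KO MEFs, and 11.54, 11.12 and 10.84 in WT MEFs. Unlike the Mtap arrays, the Srm arrays of TKO and WT MEFs overlapped (0.18, limma adjusted p = 0.67), and Srm was 1.0 higher in TKO-Ras (limma adjusted p = 0.0073) and 0.82 higher in Rb1KO against WT MEFs (limma adjusted p = 0.024).

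The genes with the highest Pearson r to each member over the 12 arrays were drawn from 6525 genes above background in at least 1 group and with a range of at least 1 log2 unit. Those for Cdkn2a were Ccdc127 (0.987), Shoc2 (0.984) and Rbl1 (0.976), and those for Cdkn2b were Cd99 (0.989), Sox11 (0.987) and Rbl1 (0.987). Rbl1 is the p107 gene deleted in the TKO and TKO-Ras groups, so its pattern repeats the genotype. For Cdkn2c they were Tmem107 (0.967), Zfand4 (0.959) and Lmo7 (0.957), and for Cdkn2d Blm (0.988), Smc4 (0.986) and Gemin2 (0.980), of which Blm is a DNA helicase and Smc4 a condensin subunit. For Cdkn1b they were Rab3il1 (0.953), Bvht (0.938) and Rab9 (0.922), for Cdkn1c Cables1 (0.941), Lama4 (0.941) and Adamts4 (0.935), and for Mtap Mbnl3 (0.977), E2f8 (0.977) and Rnf220 (0.974). E2f8 is an E2F repressor and itself a known E2F target. The arrays share their groups, so these values describe likeness across 4 groups more than across 12 independent samples.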

How the data were processed

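The deposited values are log2 RMA values that the authors made in Partek Genomics Suite 6.5, 1 per probe set and array (100 ng of total RNA per array). Their scale was read from their range, and quantile normalization can hide a shift shared by most genes. The 64 control probe sets were left out of 45101, with no other filter. Of the rest, 34945 carried 1 gene symbol, 932 several and 9160 none, and 34741 matched RefSeq by gene number. The genome build of the array annotation is not given in the sources used here. Each gene took the values of its brightest probe set (mean over all arrays).

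All 12 arrays entered 1 model in limma 3.58.1 (R 4.3.3; lmFit, eBayes, a mean per group, 8 residual degrees of freedom), 2-sided, with Benjamini-Hochberg adjustment over 45037 probe sets. The script was tested on simulated data. Members and gene lists were chosen with earlier results of these data known. Named genes were the members, up to 4 called genes of a list with the largest change, Cdk4, Cdk6, Ccnd1, Ccnd2, Mdm2, Cdkn1a and Skp2, 5 neighbours on each side, and the 3 genes most alike in pattern. A fold against a group wholly at or below background is a lower bound against that level. The settings varied were the variance model (intensity trend with robust fit; no moderation, as in the methods' ANOVA contrasts), array weights, a replicate block, a fit of the compared groups alone, scaling (median centring, cyclic loess), a filter on dim probe sets (above background on 3 arrays), the choice of probe set (mean of a gene's sets; sets without a suffix), the background percentile, a floor at background (added after the values were seen), and the arrays, leaving out 1 at a time. The number of arrays limits the precision. Figures were made with matplotlib 3.10.9 in Python 3.11.15.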

Additional observations from a re-analysis of the deposited data

How the results depend on the processing

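Among the values of single members under the alternatives, 758 kept their direction and side of the threshold, 16 lost their call, 6 gained one and 19 turned in sign, none of the last called. In TKO against WT MEFs all calls held under every alternative, with log2 fold changes of -7.07 to -5.93 for Cdkn2a, 1.37 to 1.87 for Cdkn2c, 0.76 to 0.94 for Cdkn2d and 0.93 to 1.40 for Mtap. Cdkn2b also stayed called, and as its TKO arrays are at background no range beyond the bound is given. Setting values below background to that level was added after the values were seen. It changed no call and gave no value for Cdkn2b in TKO-Ras against TKO MEFs. Cdkn2a has no probe set without a suffix, so that alternative gave it no value. The number of members called in TKO-Ras against TKO MEFs, 1, was 2 with array weights. With each replicate left out in turn it was 0 to 2 in that comparison, 5 to 5 in TKO against WT, 2 to 3 in Rb1KO against WT, 5 to 6 in TKO-Ras against WT and 2 to 4 in TKO against Rb1KO. It was 0 without TKO replicate 2 or TKO-Ras replicate 1, and 2 without TKO replicate 3 or WT replicate 3.

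Values that turned in sign, all uncalled, are given as ranges over the arrays left out in turn. In TKO against WT MEFs they were Cdkn1b (-0.50 to 0.27, also 0.044 with array weights and 0.038 as the mean of its probe sets; positive without WT replicate 3) and Cdkn1c (-0.66 to 1.06; negative without TKO replicate 2 or 3 or WT replicate 1 or 2). In Rb1KO against WT MEFs they were Cdkn1b (-0.55 to 0.22, and 0.087 with array weights), Cdkn1c (-0.86 to 0.86, and 0.38 with array weights), both positive without WT replicate 3 and Cdkn1c also without Rb1KO replicate 1, and Cdkn2b (-0.090 to 0.56; negative without Rb1KO replicate 1). In TKO against Rb1KO MEFs they were Cdkn1b (-0.12 to 0.22, and -0.043 with array weights) and Cdkn1c (-0.18 to 0.78), both negative without TKO replicate 3 and Cdkn1b also without Rb1KO replicate 2. In TKO-Ras against TKO MEFs they were Cdkn2c (-0.036 to 0.16; negative without TKO replicate 1) and Cdkn2d (-0.13 to 0.013; positive without TKO-Ras replicate 3). The cause was not tested.

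Same-numbered arrays of different groups did not deviate together (18 correlations of -0.21 to 0.31, median 0.05, against -0.38 to 0.32 and a median of -0.05 for the 36 pairs of different number), so the numbers were not taken as pairs. With the replicate number as a block, 5 members were called in TKO against WT MEFs, 3 in Rb1KO against WT, 5 in TKO-Ras against WT, 3 in TKO against Rb1KO and 1 in TKO-Ras against TKO, and no member call changed. Levels at or below 5.14 cannot be told from background. With the median of the olfactory receptors (3.86) as background no group of a member was wholly below it, and folds would then be the measured ones.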

Other observations

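Cdkn1c sits in an imprinted domain, and its 9 listed neighbours there were all measured. In TKO against WT MEFs 1 was called higher and 2 lower (median -0.03), and in Rb1KO against WT MEFs 2 and 2 (median 0.07). In TKO-Ras against WT MEFs 3 were higher and 1 lower (median 0.26). Of all genes, 23.5%, 27.9% and 33.7% passed in TKO, Rb1KO and TKO-Ras against WT MEFs. In TKO-Ras against TKO and in TKO against Rb1KO MEFs 1 was higher and 0 lower, where 7.36% and 9.55% of all genes passed. Phlda2, which like Cdkn1c is expressed from the maternal allele and restrains placental growth, had 6.02, 5.55 and 6.10 in TKO-Ras MEFs against 5.19, 4.91 and 4.89 in TKO MEFs, close to background. It was 0.89 higher in TKO-Ras MEFs (limma adjusted p = 0.030), where Cdkn1c averaged 1.73 lower without passing the test. Against WT MEFs, whose arrays were all at background, Phlda2 was also called higher in 2 groups. It was at least 1.33-fold higher in Rb1KO (limma adjusted p = 0.030) and 1.69-fold in TKO-Ras MEFs (limma adjusted p = 0.0030). Kcnq1ot1, the paternally expressed non-coding RNA of the domain, was lower by 0.77 in TKO (limma adjusted p = 0.014) and by 0.69 in TKO-Ras against WT MEFs (limma adjusted p = 0.018), and its levels, 5.27 to 6.66, lay close to background. Cd81, a tetraspanin at the edge of the domain, was lower by 0.98 in Rb1KO against WT MEFs (limma adjusted p = 0.0055). Osbpl5, an oxysterol-binding protein family gene, was lower by 0.69 in TKO against WT MEFs (limma adjusted p = 0.0075). Its level was also 0.58 lower in Rb1KO against WT MEFs (limma adjusted p = 0.016).

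Among the 3 WT arrays, replicate 3 had the highest level of Cdkn2a (12.98), Cdkn2c (10.17), Cdkn1b (11.18) and Cdkn1c (10.44). It had the lowest level of Mtap (10.88), Ccne2 (7.58), Ccna2 (9.64) and Myc (7.32). Other genes went the other way or neither way on that array. The KIP inhibitor Cdkn1a was lowest there (9.70) and Cdk4 highest (12.06). Cdkn2b (10.57), Cdkn2d (8.91) and Skp2 (9.56) lay between the other WT arrays.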
